A study of Mus musculus with 16 samples.

Results

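The chemokine genes Ccl1, Ccl3, Ccl4, Ccl5, Ccl9, Xcl1, Cxcl10 and Ccl22 were read by symbol from a matrix of raw RNA-seq counts of mouse CD8+ T cells. All 8 were found among the 34573 genes of the matrix. Transcripts of Ccl3, Ccl4 and Xcl1 were low in naive cells and high in every activated library. Ccl5 was highest in naive cells on average, through naive libraries 1 and 3, which also had high B and NK cell markers. Without those libraries this order did not hold. Ccl9 was higher in TIM-3+ than in TIM-3- cells of day 5 within each pair of libraries. Ccl1 was counted mostly in the TIM-3+ cells of day 5, where 412 of 433 counts came from replicate 1.

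Chemokines are small secreted proteins that bind receptors coupled to G proteins and direct the migration of cells that carry those receptors. CCL3, CCL4 and CCL5 recruit T cells and monocytes. XCL1 binds XCR1 on cross-presenting dendritic cells, and CD8 T cells are a known source of these 4 ligands.

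The cells came from spleens of C57BL/6 mice and were cultured to follow gene expression through activation. Naive cells, called Tn, were sorted at day 0 as CD8+ CD44- CD62L+. The other 3 groups all had antibodies to CD3e and CD28 at 10 µg/ml each, with IL-2 at 300 U/ml added overnight, and no group was activated without IL-2. Teff1 was sorted at day 2 and Teff2 at day 5, both as CD8+ PD-1+ TIM-3- cells, and Tex at day 5 as CD8+ PD-1+ TIM-3+ cells. Stimulation by antibody in a dish replaces antigen, so these groups are models of activation outside an animal. Each group had 3 libraries of 0.2 M sorted cells. The labels do not say that the replicates came from separate mice or cultures, so p-values measure the spread between these libraries, which may be technical.

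The libraries held 14.7 to 21.2 M counts. Levels are given in CPM, counts scaled to the size of the library and to its composition, and a count of 0 in a library allows up to 0.143 to 0.204 CPM (3 counts), for counting error only. Levels are not compared between genes, since CPM grow with transcript length. Fewer cells that express a gene and less RNA per cell cannot be told apart in such bulk libraries. Havcr2, which encodes TIM-3, was 56.4-, 42.1- and 89.3-fold higher in Tex than in Teff2 of replicates 1, 2 and 3, as the sort requires. The 5 CD8 T cell markers, led by Cd8a, summed to 2460 to 3985 CPM in Tn and to 1805 to 2152 CPM in the activated groups. Libraries 1 and 3 of Tn stood apart by markers of other spleen cells. The 6 B cell markers in replicates 1, 2 and 3 of Tn summed to 462, 40.0 and 922 CPM, the 4 markers of MHC class II to 1343, 112 and 2028 CPM, and the 6 markers of NK cells to 56.1, 3.20 and 118 CPM. Library 1 of the activated groups also stood apart in several members, and members that lost a call or changed sign without them are given with both values, here or with the alternatives. Without Tn libraries 1 and 3, edgeR called 20.0% of all genes between Teff1 and Tn.

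Of the members, 6 of 8 had an entry in a RefSeq promoter table of build GRCm38.p6, the assembly also called mm10. Below are the 250 bases before the start of 4 of them, chosen because Ccl3 and Xcl1 moved together, Ccl9 differed between day 5 populations, and Cxcl10 is the classic interferon-inducible member. Each is written 5′ to 3′ on the gene's own strand, which is the minus strand for all 4. Capitals mark matches, on either strand, to the NFAT core GGAAA, the kappaB motif (GGGA, any 4 bases, then CC), the AP-1 motif TGANTCA, the interferon response motif (GAAA, any 2 bases, then GAAA), or TATAAA. The NFAT core overlaps the kappaB and interferon response motifs at places, where 1 run of capitals covers both.
Ccl3 (chr11:83649379-83649628): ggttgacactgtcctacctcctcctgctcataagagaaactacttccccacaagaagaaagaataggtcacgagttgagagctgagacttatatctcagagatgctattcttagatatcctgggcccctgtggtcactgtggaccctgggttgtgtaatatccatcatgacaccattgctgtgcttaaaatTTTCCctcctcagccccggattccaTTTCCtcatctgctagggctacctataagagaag
Xcl1 (chr1:164935523-164935772): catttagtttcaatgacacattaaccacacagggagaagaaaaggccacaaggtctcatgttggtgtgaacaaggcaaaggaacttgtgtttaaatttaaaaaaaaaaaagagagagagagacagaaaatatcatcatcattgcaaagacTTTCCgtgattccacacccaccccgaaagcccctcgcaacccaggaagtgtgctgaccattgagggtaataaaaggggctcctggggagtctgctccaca
Ccl9 (chr11:83578637-83578886): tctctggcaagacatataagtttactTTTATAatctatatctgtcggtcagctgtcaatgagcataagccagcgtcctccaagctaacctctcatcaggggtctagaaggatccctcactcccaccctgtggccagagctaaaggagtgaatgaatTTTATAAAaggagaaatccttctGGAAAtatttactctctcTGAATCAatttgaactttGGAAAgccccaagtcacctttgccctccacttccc
Cxcl10 (chr5:92348890-92349139): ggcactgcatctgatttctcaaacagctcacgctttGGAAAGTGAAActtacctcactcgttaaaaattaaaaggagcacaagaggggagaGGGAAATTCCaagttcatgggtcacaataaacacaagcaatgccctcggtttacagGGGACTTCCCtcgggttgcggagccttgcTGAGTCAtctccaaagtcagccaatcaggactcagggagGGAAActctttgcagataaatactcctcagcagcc

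The same search of 32851 promoters found the NFAT core in 55.6%, the kappaB motif in 17.6%, the AP-1 motif in 6.75%, the interferon response motif in 2.98% and TATAAA in 12.4%. In this window Ccl3 held 2 NFAT cores, 59 and 34 bases before the start, and Xcl1 held 1, 100 bases before it. The Ccl9 promoter held 2 NFAT cores, 1 AP-1 match and 3 TATAAA matches. The TATAAA matches 94 and 92 bases before the start lie on opposite strands and overlap in 1 run of capitals. Cxcl10 held 3 NFAT cores, 1 AP-1 match, 1 interferon response match and the kappaB motif at 2 places, 159 and 103 bases before the start. These are matches of letters, not measured binding sites.

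Ccl3 and Ccl4 encode the macrophage inflammatory proteins 1 alpha and 1 beta. In replicates 1, 2 and 3 of Tn, Ccl3 stood at 19.8, 0.204 and 8.06 CPM, against 301, 162 and 399.9 CPM in the Teff1 libraries. It stood at 165, 666 and 116 CPM in Teff2 and at 646, 799.8 and 255 CPM in Tex. No Tn library reached any activated library, whereas the 3 activated groups overlapped. Ccl3 rose from 9.36 ± 9.87 to 288 ± 119 CPM between Tn and Teff1 (SD, n = 3 each), a 30.7-fold rise with a log2 fold change of 4.94 ± 1.08 (SE; edgeR's quasi-likelihood test, Benjamini-Hochberg adjusted p = 0.00294). It was 33.7-fold higher in Teff2 and 60.5-fold higher in Tex than in Tn (edgeR adjusted p = 0.00258 and 0.00111).

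In Tn, Ccl4 had 15.2, 0.613 and 5.75 CPM, whereas the 3 Teff1 libraries had 154, 92.8 and 249.98 CPM. The 3 Teff2 libraries had 124, 292 and 71.2 CPM and the 3 Tex libraries 294, 308 and 149.6 CPM. All activated libraries lay above all Tn libraries, and Tn replicate 2 was again the lowest of all. Relative to Tn, its log2 fold change was 4.52 ± 0.87 at day 2, 4.49 ± 0.87 in Teff2 and 5.12 ± 0.89 in Tex (SE; edgeR adjusted p = 0.00136, 0.00136 and 6.19e-04). In the annotation Ccl3 (chr11:83647843-83649378) and Ccl4 (chr11:83648624-83664683) overlap, and the counting is not stated to use strand, so a share of their reads cannot be told apart. The count of Ccl3 over that of Ccl4 ranged from 1.60 to 1.96 in Teff1 libraries, from 1.33 to 2.28 in Teff2 and from 1.71 to 2.60 in Tex, and was 1.30, 0.333 and 1.40 in Tn, where replicate 2 had 3 and 9 counts. These ranges overlapped between the activated groups.

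Xcl1, the C chemokine lymphotactin, lies on chromosome 1 (chr1:164931644-164935522). The Tn libraries had 11.8, 2.79 and 7.42 CPM and the Teff1 libraries 396, 120 and 413 CPM. At day 5 the values were 317, 679 and 395 CPM in Teff2 and 732, 745 and 345 CPM in Tex. Every activated library was above every Tn library, and the lowest activated library was Teff1 replicate 2. Beyond the rise by day 2, Xcl1 was 63.1-fold higher in Teff2 and 82.6-fold higher in Tex than in Tn, with log2 fold changes of 5.98 ± 0.66 and 6.37 ± 0.67 (SE; edgeR adjusted p = 3.79e-05 and 2.33e-05). Among activated groups its levels did not separate, with log2 fold changes of 0.58 ± 0.53 from Teff1 to Teff2 and 0.97 ± 0.53 from Teff1 to Tex (edgeR adjusted p = 0.760 and 0.406).

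**Figure D1:**
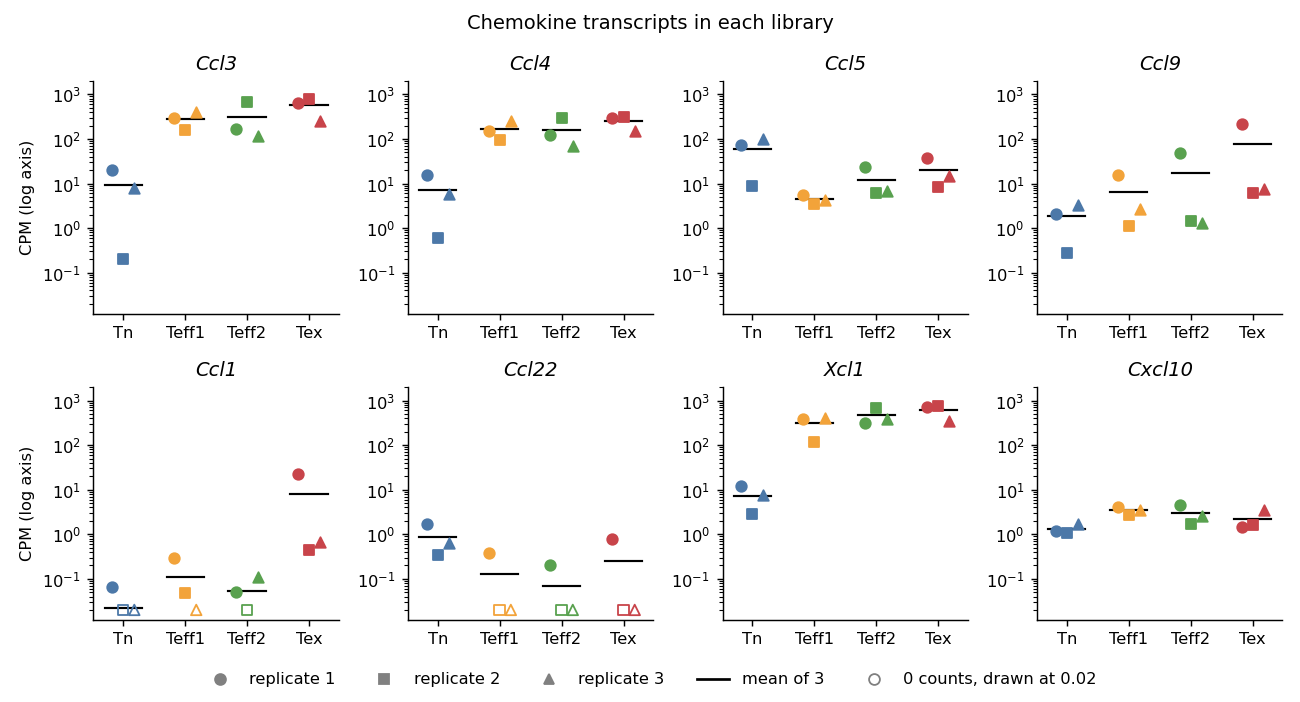
CPM of each member in each library on a log axis, by group, with replicates 1, 2 and 3 as circle, square and triangle, the mean as a line, and libraries with 0 counts as open symbols at 0.02. Ccl3, Ccl4 and Xcl1 lie between 71.2 and 799.8 CPM in all 9 activated libraries, above all 3 Tn libraries, while replicate 1 is the highest activated library in each group for Ccl5, Ccl9 and Ccl22.

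Ccl5, also called RANTES, is a ligand of CCR1 that memory and effector T cells store and secrete. The Tn libraries had 71.7, 8.72 and 99.3 CPM and the Teff1 libraries 5.61, 3.47 and 4.30 CPM. At day 5 the levels were 23.7, 6.00 and 6.88 CPM for Teff2 and 38.2, 8.53 and 14.8 CPM for Tex. Teff1 lay below all Tn libraries and below all Teff2 and Tex libraries, whereas Tn replicate 2 lay among the day 5 libraries. Ccl5 was lower than in Tn by a log2 fold change of -3.74 ± 0.86 in Teff1 and -2.29 ± 0.80 in Teff2 (SE; edgeR adjusted p = 0.00397 and 0.0330; the Teff2 call ended under 8 alternatives), and in Tex the value was -1.55 ± 0.78 (adjusted p = 0.114), or -2.26 and called without library 1 of the activated groups (adjusted p = 0.0260). Without Tn libraries 1 and 3, which also had the high NK and B cell markers, the differences were -0.98, 0.48 and 1.21 for Teff1, Teff2 and Tex (edgeR adjusted p = 0.435, 0.739 and 0.363), so both calls ended and 2 of 3 signs turned. The part of those other cells in the Tn level of Ccl5 was not tested.

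The lowest level of Ccl3, Ccl4, Ccl9, Xcl1 and Cxcl10 in Tn was likewise in replicate 2. The 5 markers of CD44-high memory-phenotype T cells summed to 468, 317 and 476 CPM in Tn replicates 1, 2 and 3, the 8 macrophage and monocyte markers, led by Lyz2, to 260, 64.4 and 132 CPM, and the 7 dendritic cell markers to 37.9, 6.47 and 43.4 CPM. The CD8 T cell markers ran the other way, at 2460, 3985 and 2942 CPM. Against Tn replicate 2 alone, Ccl3, Ccl4 and Xcl1 were still called in Teff1, with larger log2 fold changes of 10.40, 8.05 and 6.78 (edgeR adjusted p = 0.00514, 0.00334 and 0.00318). They were also called in Teff2, with 10.53, 8.02 and 7.36, and in Tex, with 11.38, 8.64 and 7.75 (adjusted p = 0.00405, 0.00265 and 0.00189, and 0.00272, 0.00176 and 0.00138).

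**Figure D2:**
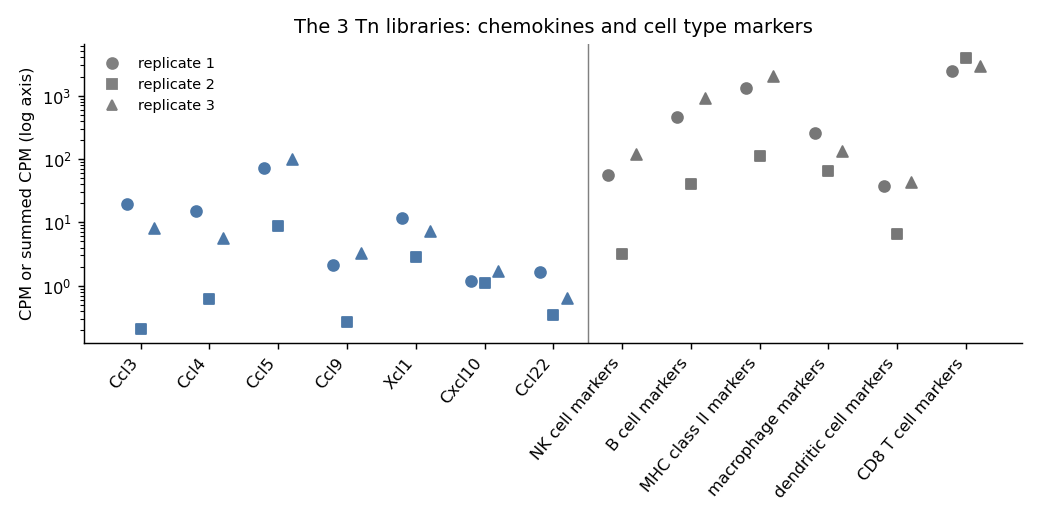
Levels of 7 members (blue, CPM) and summed levels of 6 marker lists (grey, CPM) in the 3 Tn libraries on a log axis, with replicates as circle, square and triangle. Replicate 2 is the lowest library for all 7 members and for the 5 lists of other cell types, and the highest for the CD8 T cell markers at 3985 CPM.

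Ccl9, a ligand of CCR1 also known as macrophage inflammatory protein 1 gamma, was far higher in replicate 1 than in replicates 2 and 3 of each activated group. Its Tn libraries had 2.12, 0.272 and 3.28 CPM, and its Teff1 libraries 15.2, 1.09 and 2.67 CPM. The Teff2 libraries had 49.1, 1.42 and 1.29 CPM and the Tex libraries 219, 6.26 and 7.44 CPM. Replicate 1 was 5.71-fold above the next library in Teff1, 34.6-fold in Teff2 and 29.5-fold in Tex, and all 3 Tex libraries lay above all Tn libraries. Ccl9 was higher in Tex than in Tn by a log2 fold change of 5.33 ± 1.87 (SE; edgeR adjusted p = 0.0304), but by 1.85 without Tex replicate 1 (adjusted p = 0.301) and by 1.93 without library 1 of all activated groups (adjusted p = 0.0346). The call also ended without any 1 Tn library, without Tn libraries 1 and 3 (8.10, adjusted p = 0.161) and with limma, and DESeq2 gave this comparison no adjusted p.

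The replicate numbers of Tex and Teff2 paired their libraries, and within pairs Ccl9 was 4.46-, 4.41- and 5.77-fold higher in Tex for replicates 1, 2 and 3. The fit within pairs gave a log2 fold change of 2.21 ± 0.12 (SE; edgeR adjusted p = 4.12e-05). It stayed between 2.14 and 2.34 and was called without each pair in turn, including 2.34 ± 0.28 without pair 1 (adjusted p = 4.47e-05). The unpaired fit gave 2.16 ± 1.58 (adjusted p = 1.0), and -1.33 when Tex replicate 1 alone was left out, which leaves its Teff2 partner in. The 3 pairs thus had ratios of like size, although Teff2 replicate 1 was far above replicates 2 and 3 in level.

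Ccl1, a ligand of CCR8, was close to absent outside Tex. Its counts were 1, 0 and 0 in Tn, 6, 1 and 0 in Teff1, 1, 0 and 2 in Teff2, and 412, 8 and 13 in Tex. Each Tex library held more counts than any other library, and Tex replicate 1 held 412 of their 433 counts. The gene fell to the filter on low counts and was not tested in the main fit. From summed counts, Tex was 139-fold above Teff2 (95% counting interval 47.1 to 675), and 9.49-fold above it without replicate 1 of both (2.32 to 83.5). Without the filter, edgeR's adjusted p was 8.01e-04 for Tex against Tn, 0.0251 against Teff1 and 0.902 against Teff2.

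Ccl22, a ligand of CCR4 made mainly by dendritic cells, had 25, 5 and 12 counts in Tn, 8, 0 and 0 in Teff1, 4, 0 and 0 in Teff2 and 14, 0 and 0 in Tex. Among activated libraries it was counted only in replicate 1 of each group. It was 6.35-fold higher in Tn than in Teff1 from summed counts (95% counting interval 2.95 to 15.7), and no comparison was called by edgeR with group alone in the model (adjusted p = 0.0941 at the lowest). A replicate block on all 12 libraries called it lower than in Tn in Teff1, Teff2 and Tex (edgeR adjusted p = 0.0116, 0.00662 and 0.0272), and limma called it in Teff2 (0.0438). Equal replicate numbers of Tn and activated libraries correlated at 0.14 or less, so the block does not rest on pairs shown by the data. Its log2 fold change from Tn was -2.67 in Teff1 and -1.76 in Tex, and -1.33 and -0.43 without Tn libraries 1 and 3. Of the 7 dendritic cell markers, Zbtb46 was also highest in replicate 1 of Teff1, Teff2 and Tex, at 6.38, 22.1 and 17.2 CPM against 1.09 to 10.9 CPM in replicates 2 and 3. The other 6 summed to 0.238, 0.190 and 0.424 CPM in Teff1 replicates and to 0.408, 0.323 and 0.645 CPM for Teff2, highest in replicate 3, and to 2.42, 0.756 and 1.09 CPM for Tex. The 6 NK cell markers summed to 12.3 CPM in Tex replicate 1 and to at most 1.52 CPM in the other activated libraries. In Tex replicate 1 Klra7 alone had 9.78 CPM and Ncr1 0.604 CPM. The 4 markers of CD4 and regulatory T cells were highest in replicate 1 of Teff1, Teff2 and Tex, at 40.4, 126.7 and 126.6 CPM. They stood at 6.97 to 92.4 CPM in replicates 2 and 3. Zbtb7b led this list, at 16.5, 75.4 and 88.8 CPM on average in Teff1, Teff2 and Tex. These sums were thus mostly Zbtb7b, not Cd4, which led the list in Tn alone. The part of these other cells in the levels of Ccl22, Ccl9, Ccl5 and Ccl1 was not tested.

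Cxcl10, an interferon-inducible ligand of CXCR3, was low in all groups. The Tn libraries had 1.19, 1.09 and 1.72 CPM and the Teff1 libraries 4.00, 2.66 and 3.58 CPM. At day 5 Teff2 had 4.64, 1.68 and 2.63 CPM, and Tex had 1.43, 1.62 and 3.43 CPM. Teff1 lay above all Tn libraries, and the day 5 groups overlapped with Tn. The log2 fold change was 1.34 ± 0.47 from Tn to Teff1 (SE; edgeR adjusted p = 0.0327), a call that ended without Tn libraries 1 and 3 (1.63, adjusted p = 0.159) and under 5 other alternatives. It was 1.16 ± 0.47 in Teff2 and 0.69 ± 0.47 in Tex (adjusted p = 0.0595 and 0.236). The gene overlaps Art3 in the annotation, and reads of the overlap cannot be assigned by these counts.

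Counted over the members, 5 of 7 tested were called between Teff1 and Tn, with Ccl3, Ccl4, Xcl1 and Cxcl10 higher and Ccl5 lower. Of all 14332 genes tested, 48.9% were called in that comparison, 24.5% as higher and 24.5% as lower. Between Teff2 and Tn 4 were called (Ccl3, Ccl4 and Xcl1 higher, Ccl5 lower), where 48.9% of genes were called, 25.6% as higher and 23.3% as lower. Between Tex and Tn 4 were called (Ccl3, Ccl4, Xcl1 and Ccl9 higher), where 52.9% of genes were, 27.3% as higher and 25.6% as lower. These 3 comparisons share the Tn libraries.

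Between activated groups edgeR called 0 of 7 tested members. For Teff2 against Teff1 the background was 0.67% of genes, with 0 members at an unadjusted p under 0.05 and 0 called by DESeq2 or limma. For Tex against Teff1 it was 3.01%, with 1 member, Ccl5, at an unadjusted p under 0.05 and 0 called by DESeq2 or limma. A replicate block on those 6 libraries called 2 members, Ccl5 and Ccl9, where 5.15% of genes were called, although equal numbers matched those libraries for replicate 1 alone. For Tex against Teff2 it was 0.00698%, with 0 members at an unadjusted p under 0.05 and 0 called by DESeq2 or limma. A p that misses the threshold does not show that the levels were alike.

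**Figure D3:**
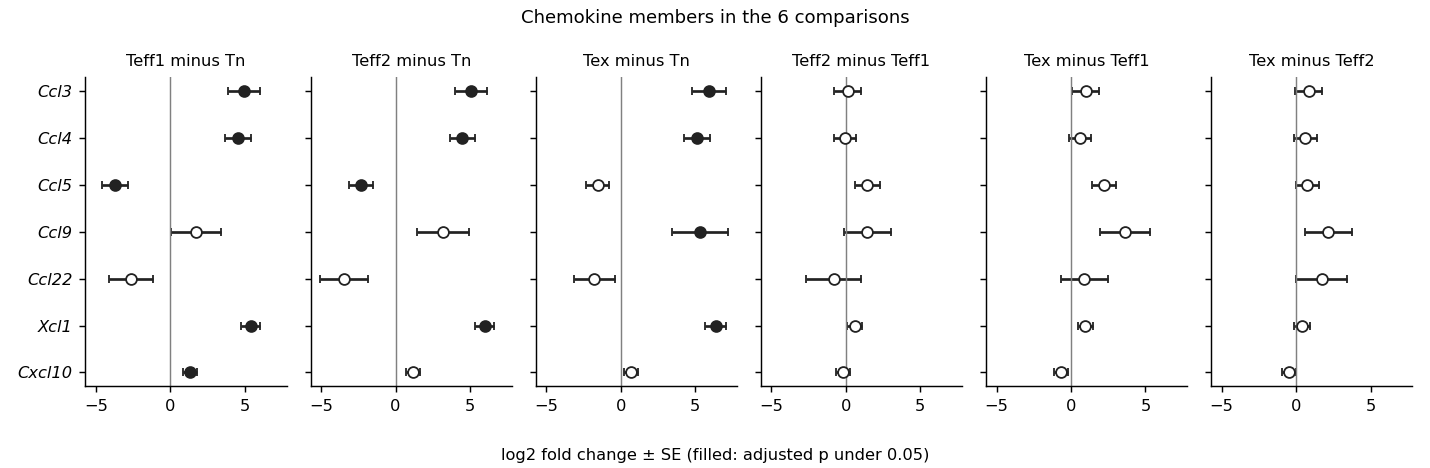
Log2 fold changes (points) with standard errors (bars) of the 7 tested members in the 6 comparisons, filled where edgeR's adjusted p was under 0.05. Filled points occur in the 3 comparisons with Tn and in none between activated groups.

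The fit within pairs of Tex and Teff2 called 1.69% of 13096 genes and 2 of 6 tested members, Ccl9 and Ccl5. Ccl5 was 1.61-, 1.42- and 2.16-fold higher in Tex of replicates 1, 2 and 3, with a log2 fold change of 0.77 ± 0.14 (SE; edgeR adjusted p = 0.0311). Its call ended without pair 3 (0.60, adjusted p = 0.262), and its value without pair 1 was 0.83 (adjusted p = 0.0152). Ccl3 was 3.91-, 1.2- and 2.20-fold higher and Ccl4 2.37-, 1.05- and 2.10-fold higher in Tex, with log2 fold changes of 1.11 ± 0.25 and 0.79 ± 0.19 (adjusted p = 0.0671 and 0.0800). Both were called without pair 1 or without pair 2. All genes called moved as well, from 1.69% to 5.27% without pair 1, 3.94% without pair 2 and 0.293% without pair 3. Xcl1 differed by ratios of 2.31, 1.10 and 0.872 and Cxcl10 by 0.308, 0.966 and 1.30, so their pairs did not share a sign.

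**Figure D4:**
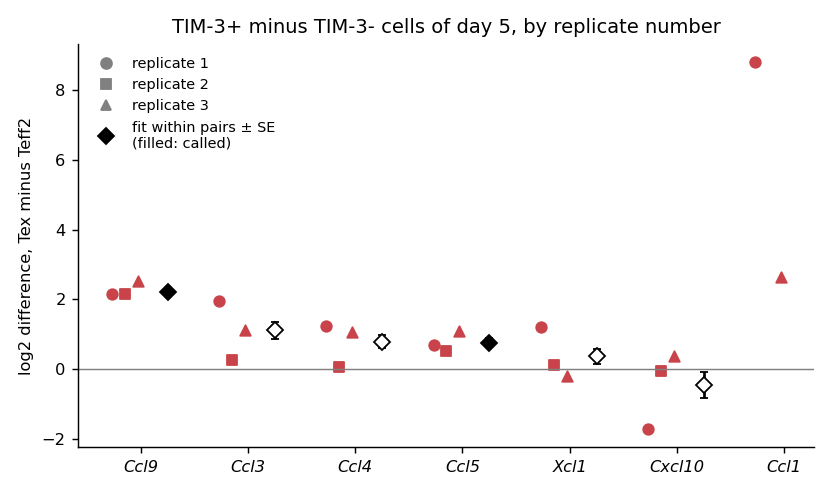
Log2 difference between Tex and Teff2 of equal replicate number for 7 members (red symbols), with the estimate of the fit within pairs and its standard error (diamond, filled where called, drawn for the 6 tested). The 3 Ccl9 pairs lie between 2.14 and 2.53, and pair 2 of Ccl1, with 8 counts in Tex and 0 in Teff2, has no ratio and is not drawn.

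On chromosome 11, Ccl5 (chr11:83525778-83530518), Ccl9 (chr11:83572917-83578636), Ccl3 and Ccl4 lie within 139 kb, and Ccl1 (chr11:82176666-82179812) lies 1.35 Mb from Ccl5. Ccl6, a macrophage chemokine that sits between Ccl9 and Ccl3, had 4.38, 0.204 and 8.06 CPM in Tn and at most 0.220 CPM in any activated library. Neighbours in the cluster therefore differed in pattern, with Ccl3 and Ccl4 high, Ccl6 near 0 and Ccl5 lower than in Tn on day 2. The log2 fold change of Ccl5 shrank from -3.74 to -0.98 without Tn libraries 1 and 3, and Ccl6 had only 3 counts in Tn replicate 2. The part of other spleen cells in their Tn levels was not tested. Ccl2, Ccl7, Ccl11, Ccl12 and Ccl8, which lie beside Ccl1, had at most 0.199 CPM in any library.

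**Figure D5:**
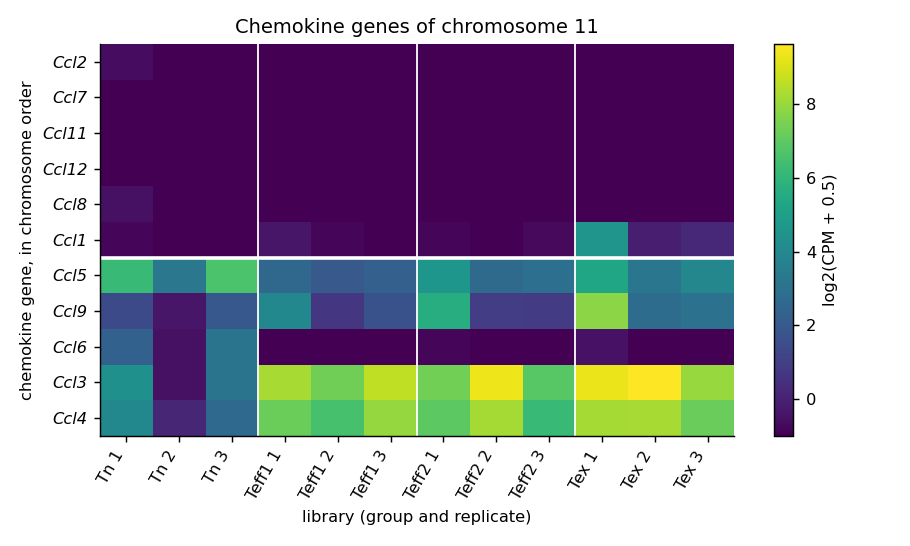
Log2 of CPM + 0.5 (colour) for the Ccl genes of chromosome 11 in chromosome order (rows; the white line marks the gap of 1.35 Mb) in each library (columns). Ccl3 and Ccl4 are high in all activated libraries, and Ccl6 between them and Ccl9 has at most 0.220 CPM there.

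Among receptors of these ligands, Ccr4, which binds Ccl22, rose from 1.53 ± 0.547 to 19.9 ± 3.30 CPM between Tn and Teff1 (SD), with a log2 fold change of 3.69 ± 0.31 (SE; edgeR adjusted p = 9.36e-06). Cxcr3, the receptor of Cxcl10, averaged 12.1 ± 5.92 CPM in naive cells and 10.1 ± 4.86 CPM at day 2, against 3.65 ± 1.44 CPM in Teff2 and 3.33 ± 1.40 CPM for Tex (SD, n = 3 each). It was lower in Teff2 and in Tex than in Tn (log2 fold changes of -1.73 and -1.86; edgeR adjusted p = 0.0181 and 0.0118), but both calls ended without Tn libraries 1 and 3 (-0.84 and -0.97; adjusted p = 0.412 and 0.321). Ccr8 and Xcr1 were low, at 0.391 to 0.768 and 0.0995 to 1.26 CPM on average by group.

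Of 24 chemokine receptors, 15 were tested, and between Teff1 and Tn 1 rose and 9 fell, with a median log2 fold change of -3.54 against -0.06 for all genes, of which 24.5% rose and 24.5% fell. Without Tn libraries 1 and 3, the median over 16 tested receptors was -0.62, against -0.03 for all genes. Ccr9, a gut-homing receptor, fell from 158 ± 49.9 to 1.96 ± 1.79 CPM (SD), and was also called against Tn replicate 2 alone (log2 fold change -6.78, edgeR adjusted p = 0.00104). Cx3cr1, the fractalkine receptor, averaged 5.06 ± 4.23 CPM in Tn and 0.0995 ± 0.124 CPM in Teff1 (SD). Its Tn libraries stood at 6.63, 0.272 and 8.28 CPM, in the order of the NK and B cell markers, and its call ended without libraries 1 and 3 (-1.38, adjusted p = 0.607). Ccr3 had 1.57 to 2.85 CPM in Tn and 0 counts in all 9 activated libraries. Within pairs of day 5, Ccr2 and Cxcr6 rose in Tex, by 2.07 ± 0.31 and 1.33 ± 0.20 on the log2 scale (SE; edgeR adjusted p = 0.0169 and 0.0173). These lists were chosen with earlier results of these data known.

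Of 32 further chemokine ligands, 9 had no count in any library and 7 were tested. Between Teff1 and Tn 0 rose and 3 fell, with a median log2 fold change of -1.98, namely Ppbp and Pf4, which platelets store, and Cxcl9. Without Tn libraries 1 and 3, Ppbp and Cxcl12 fell, the Pf4 call ended (adjusted p = 0.0514) and Cxcl9 was not tested. Ppbp had 2.72 to 13.1 CPM in Tn and 0 counts in all activated libraries. The 5 platelet markers include Ppbp and Pf4, and of the others Gp1bb was also at 0 there. Gp9 and Itga2b had counts in each activated group, with Itga2b at 3.07 CPM on average in Teff1. Of 28 chemokine signalling genes 4 rose and 16 fell by Teff1, with a median of -0.81, where 24.5% of all genes rose and 24.5% fell. The median was also -0.81 without Tn libraries 1 and 3, against -0.03 for all genes. Rgs16 and Rgs1, which end G protein signals, rose from 3.54 ± 2.42 to 257 ± 155 and from 29.9 ± 23.3 to 262 ± 68.1 CPM, while Prex1 and Plcb2, effectors below the receptors, fell from 545 ± 18.2 to 91.6 ± 6.59 and from 218 ± 25.2 to 44.9 ± 7.84 CPM (SD).

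Of 30 transcription factors that are known to act on chemokine genes, 11 rose and 7 fell by Teff1, with a median log2 fold change of 0.36. Of all genes, 48.9% were called in that comparison. The median of the list was 0.26 without Tn libraries 1 and 3, against -0.03 for all genes. Irf4 rose from 40.0 ± 38.9 to 575 ± 37.5 CPM, Atf3 from 4.60 ± 7.05 to 73.1 ± 30.3 CPM and Egr2 from 14.4 ± 3.98 to 84.9 ± 34.6 CPM, while Fos fell from 225 ± 175 to 10.5 ± 5.32 CPM (SD). Of 19 tested interferon-inducible genes, 3 rose and 5 fell (against the same 48.9% of all genes), with a median of -0.27 and with Gbp2 and Gbp5 among the rises at 534 ± 290 and 236 ± 66.0 CPM in Teff1, and Ifit3, Ifit1 and Irf9 among the falls. Without Tn libraries 1 and 3, the median over 18 tested genes of this list was -0.13, against -0.03 for all genes. There the calls of Gbp5, Ifit3, Ifit1 and Irf9 held, while the Gbp2 call ended. From Teff1 to Teff2, Ifit3 fell further, from 4.45 ± 1.26 to 0.954 ± 0.292 CPM (SD; edgeR adjusted p = 0.0254), the 1 call of that list.

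Likeness of pattern was measured as the root mean square difference between centred profiles of log2 CPM + 0.5 over the 12 libraries, among 8963 genes. Ccl4 was nearest to Ccl3, at 0.51, and Xcl1 came next at 0.83, then the kinase Nek6 at 1.01. Nearest to Ccl4 after Ccl3 were Irf4 at 0.64 and Spry1 at 0.67. Nearest to Xcl1 were Ncs1 at 0.49, Plscr1 at 0.55 and Nek6 at 0.59. Nearest to Ccl5 was Plcg2 at 0.48, with 44.0, 4.37, 7.89 and 11.9 CPM on average in Tn, Teff1, Teff2 and Tex. Trim7 at 0.51 and Il9r at 0.59 came next. Plcg2 had 57.0, 8.58 and 66.5 CPM in Tn replicates 1, 2 and 3. Trim7 and Il9r were also lowest in Tn replicate 2, as were the NK and B cell markers. The part of other cells in this likeness was not tested. Nearest to Ccl9 were Tnc at 0.84, Gp49a at 1.0 and Trim66 at 1.07, so that its nearest gene was further away than that of Ccl3, Ccl4, Ccl5 or Xcl1. Like Ccl9, these genes were highest in replicate 1 of each activated group, with Tnc at 29.3, 1.03 and 1.25 CPM in Tex replicates 1, 2 and 3.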

How the data were processed

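The deposited raw counts, whole numbers per gene symbol, came from the authors, and a deposited matrix on a log2 scale holds their normalized values for 21574 genes, whose transformation is not stated. The submitters' processing notes name the build mm10 and the tools HISAT2, HTSeq, DESeq2, Juicer and BWA, but give no role or version. Strandedness is not given in the sources used here. The 4 Hi-C samples were not analysed here.

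Counts were tested with edgeR 4.0.16 (R 4.3.3), quasi-likelihood F test, TMM factors and edgeR's filter (14332 genes), fitted to the 12 libraries together, with group alone in the model, and called at a Benjamini-Hochberg adjusted p under 0.05 over all genes tested. CPM use the same TMM-scaled library sizes, of kept genes. DESeq2 1.42.0 and limma 3.58.1, the latter on the deposited log2 values, were alternatives. The scripts were tested on simulated data. The members, gene lists and naming rules were chosen with earlier results of these data known. All members are named, with the 3 genes nearest in pattern to each member of at least 10 CPM, and the called list genes of largest change with at least 2 CPM.

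Whether replicate numbers pair libraries was checked by correlating deviations from group means across genes. Between Tex and Teff2, libraries of equal number correlated at 0.85, 0.78 and 0.75 and those of unequal number at 0.12 or less, so a fit with the replicate block on those 6 libraries (13096 genes) was also used. For the other comparisons a replicate block was run only as an alternative. Some items are not reported here. Gene coordinates and promoters are from RefSeq, GRCm38.p6.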

Additional observations from a re-analysis of the deposited data

How the results depend on the processing

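Over 26 alternatives, 912 member values gave 848 of the same direction and side of the threshold, 21 that lost a call, 20 that gained one and 23 that changed sign, 1 of them a called value. That value is Ccl5 in Teff2 against Tn, which became 0.48 without the Tn libraries 1 and 3, and the same setting left 3 members called between Teff1 and Tn and gave 1.21 for Ccl5 in Tex against Tn. With 1 Tn library left, that library is assumed to vary like the other groups. Leaving out 1 library at a time gave 0 to 1 calls between Tex and Teff1, where the 1 came without Tex replicate 2. Also between Tex and Teff1, 1 member (Ccl1) was called without the filter, and 2 (Ccl5 and Ccl9) with the replicate block on those 6 libraries, where 5.15% of genes were called. The share of all genes called without 1 library or without the filter is not given here, so those member counts cannot be set against it. Between Tex and Teff1, libraries of equal number correlated at r = 0.52, 0.27 and 0.03 for replicates 1, 2 and 3. Tex replicate 2 was closer to Teff1 replicate 3 (r = 0.48), so the numbers matched libraries for replicate 1 alone. The block on all 12 libraries called 6 members in each of the 3 comparisons with Tn, where it called 56.2%, 55.7% and 59.6% of all genes in Teff1, Teff2 and Tex. It gained Ccl22 in all 3, Cxcl10 in Teff2 and Ccl5 in Tex. Equal numbers correlated at 0.14 or less between Tn and these groups, so those gains do not rest on pairs shown by the data. The block on the Tex and Teff2 libraries, which the numbers do pair, called 2.

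Sign changes among values that were not called were as follows. From Teff1 to Teff2, Ccl3 gave -0.053 with the block on all libraries, -0.28 with it on the 6 compared, -0.15 with limma, and -1.04 to 0.53 when 1 library at a time was left out (-0.15 without Teff1 replicate 2). Ccl4 gave -0.77 to 0.40 without 1 library (0.13, 0.33 and 0.40 without Teff2 replicate 1, Teff2 replicate 3 and Teff1 replicate 3) and 0.087 without library 1 of all activated groups. Ccl9 gave -2.23 (without Teff2 replicate 1) to 3.22, and -0.46 without library 1 of all activated groups. Cxcl10 gave -0.66 to 0.086, the latter without Teff2 replicate 2. From Teff2 to Tex, leaving out 1 library gave -0.064 to 1.67 for Ccl5 and -1.33 to 5.83 for Ccl9, both lowest without Tex replicate 1. There Cxcl10 gave -0.97 to 0.0027, highest without Teff2 replicate 1, and 0.23 without library 1. Against Tn, Ccl9 gave -0.038 to 2.40 in Teff1 and -0.49 to 3.85 in Teff2, both lowest without replicate 1 of that group, and -0.41 in Teff2 without library 1 of all activated groups. Within pairs, Xcl1 gave -0.032 to 0.66 and Cxcl10 -0.95 to 0.20 without 1 pair, the sign changing without pair 1. The cause was not tested.

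The fits without each pair, the gene lists without Tn libraries 1 and 3, and the Ccl1 fit below were chosen after seeing the data. With no filter the block gave Ccl1 an adjusted p of 8.38e-44 in Tex against Teff2, from pairs of 412 against 1, 8 against 0 and 13 against 2 counts. That fit called 968 genes against 221 with the filter and borrowed its spread wholly from other genes, so its p is not used. DESeq2 gave Ccl9 no adjusted p in Tex against Tn. Levels per length were not run, since no exon lengths were used here. Counts of 0 to 3 limit Ccl1 and Ccl22.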
